A study of Coturnix japonica and Phalacrocorax auritus with 29 samples.

Results

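Livers of double-crested cormorant (DCCO) embryos from eggs injected with the high dose of chlorpyrifos were compared with livers from eggs injected with the solvent alone. The libraries were chosen by their labelled species and group, which gave 5 high dose and 4 control libraries, 9 of the 29 in the series. The deposited column of 1 control carries a replicate number that no cormorant control title has. It was placed among the controls by the letter S in its column name and is called the unnumbered control below. Chlorpyrifos is an organophosphate insecticide, and DMSO is the solvent that all control eggs received. Per the labels' protocols, the air cell of each fertilized egg received its solution before incubation, the eggs were then kept at 37 °C and 60% humidity, and RNA came from 1 liver per library. All 9 embryos were labelled as day 16. The labels list 0.4, 4.0 and 40 µg per g egg as nominal doses and do not tie them to the names medium and high. The other libraries used here were 5 DCCO livers at the medium dose, also of day 16, and 5 control, 5 medium and 5 high dose livers of Japanese quail (JQ), labelled as day 9 except for 1 quail control labelled as day 16. The labels used here give no genotype or strain.

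Chlorpyrifos is known as an inhibitor of acetylcholinesterase, the enzyme that ends signalling by acetylcholine at synapses, and acts mainly through its oxon, which cytochrome P450 enzymes of the liver form from the parent compound. The same enzyme families, together with paraoxonases and carboxylesterases, are known to clear the compound. The liver of a bird embryo also synthesises plasma proteins and bile acids, handles lipids from the yolk, and holds blood cells, which are nucleated in birds and contribute RNA.

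The measurement was the number of reads per protein name in each library, given here as CPM (counts scaled to a common depth) after TMM scaling (trimmed mean of M values), which corrects for differences in depth and composition. Log2 fold changes are high dose minus control, with 95% intervals in square brackets or standard errors after ±. A name was called changed when the Benjamini-Hochberg adjusted p of edgeR's quasi-likelihood test was under 0.05 over the 14579 names tested, and "rose" and "fell" are used for such names alone. Symbols are the usual ones for the protein names in the deposited table.

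The 9 libraries held 9890108 to 19155471 counts. The hepatocyte list had 20 of 20 markers tested, with a mean log2 CPM of 10.1 to 10.9 in controls and 10.4 to 10.9 at the high dose, and albumin took 4.67% to 7.52% of counts. Control replicate 1 and high dose replicate 1 stood apart from the other 7 libraries, at -54.6 and -47.1 on a leading principal component that held 33.4% of the variance, against 3.75 to 27.2. They are also the 2 libraries among the 9 whose deposited column names carry the number 6, while the other controls carry 11 and the other high dose libraries 12. The column names of all controls contain CE2 and those of all exposed livers CE5, so whatever that code stands for cannot be told apart from exposure. Among the other 7 libraries the number, 11 or 12, cannot be told apart from the high dose. In bulk tissue fewer cells of a type and less RNA per cell cannot be told apart either.

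Few messages differed past the threshold between high dose and control livers. Of 14579 names, 5 were called (0.0343%), of which RSRP1, RBM5 and a DNAJA1-like protein rose and CIRBP and DUSP4 fell. RSRP1 and RBM5 encode nuclear proteins of the splicing machinery, the DNAJA1-like protein belongs to the co-chaperones of heat shock protein 70, CIRBP encodes an RNA-binding protein named for its induction by mild cold, and DUSP4 encodes a phosphatase that inactivates MAP kinases. At an unadjusted p under 0.05 there were 481 names higher (3.3%) and 296 lower (2.03%). All 5 high dose livers lay above all 4 controls for 150 names (1.03%) and below them for 81 (0.556%). With so few livers such separation also arises by chance, so a lack of overlap is a description here and no test.

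RSRP1, an arginine- and serine-rich protein, had the largest change of the 5. Its level was 4.11, 7.01 and 7.05 CPM in controls 1 to 3 and 5.95 CPM in the unnumbered control, against 20.8, 25.0, 30.0, 25.2 and 20.4 CPM in high dose livers 1 to 5. The lowest exposed liver thus stood well above the highest control, and the groups did not overlap. The log2 fold change was 2.0 ± 0.17 [1.65, 2.36], with an adjusted p of 2.28e-05.

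RBM5, known in mammals as a regulator of the alternative splicing of apoptosis genes, had more reads than RSRP1 in every library. It stood at 63.6, 71.1, 60.6 and 70.7 CPM in the controls and at 128, 157, 164, 138 and 154 CPM in the high dose livers. Each group was narrow and the groups were far apart. RBM5 rose by 1.15 ± 0.10 on the log2 scale [0.95, 1.36], again with an adjusted p of 2.28e-05. RSRP1 and RBM5 were called under 18 of 18 other settings, and the highest adjusted p among these was 0.00409.

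The DNAJA1-like name stood at 9.61, 9.74, 7.62 and 10.4 CPM in controls and at 23.1, 20.0, 16.6, 20.8 and 13.1 CPM at the high dose. Every exposed liver was above every control, with high dose replicate 5 the closest. The name rose by 1.01 ± 0.16 (log2) [0.67, 1.34], with an adjusted p of 0.0392.

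CIRBP was the most abundant of the 5 called names. It had 277, 222, 272 and 254 CPM in controls and 158, 146, 160, 170 and 195 CPM in high dose livers. The exposed livers all lay below the lowest control. CIRBP fell by 0.63 ± 0.10 on the log2 scale [-0.84, -0.41], with an adjusted p of 0.0392.

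DUSP4 had 67.0, 60.1, 64.6 and 51.6 CPM in controls and 44.6, 38.3, 34.1, 41.5 and 39.3 CPM in high dose livers, again without overlap. It fell by 0.62 ± 0.10 on the log2 scale [-0.83, -0.41], with an adjusted p of 0.0392. The calls of these last 3 names were less stable than those of RSRP1 and RBM5. None of the 3 was called in an edgeR fit of the 9 libraries alone (adjusted p 0.505 for DNAJA1-like and DUSP4, 0.551 for CIRBP). A fit with the replicate number as a block also left out the unnumbered control. It called none of the 3 either (adjusted p 0.145 to 0.153). Their calls also changed when 1 of the 9 libraries was left out. DNAJA1-like stayed called without control 1, high dose 1 or high dose 5, CIRBP without control 2 or high dose 5, and DUSP4 without the unnumbered control or high dose 1, and each lost its call without any 1 of the other libraries among the 9, where the number called ran from 2 to 14. Some names described below were called without 1 library: CLK4, SRSF6, LUC7L3, INTS6, CHD1 and the CYP1A names without control 1, SRSF5 without control 2, INTS6 and ZFC3H1 without high dose 1, and H1.01 without high dose 5.

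**Figure D1:**
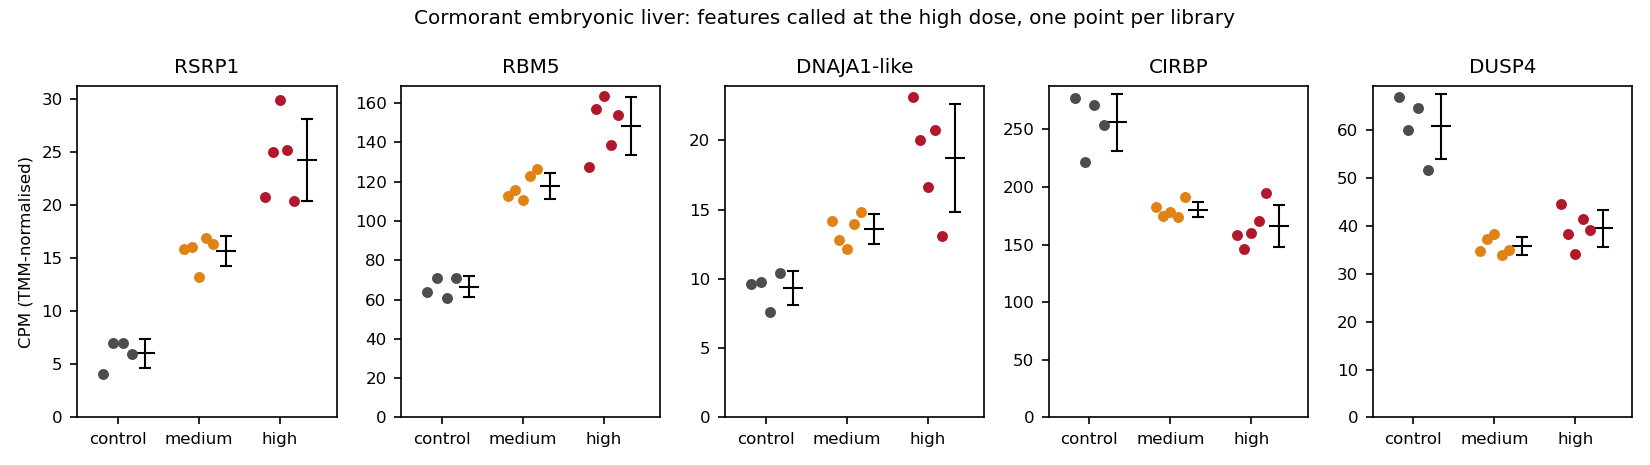
Level (CPM) of the 5 called names in each cormorant liver at control, medium and high dose, 1 point per library, with bars for the group means and SD. The high dose livers lie above all controls for RSRP1, RBM5 and the DNAJA1-like name and below all controls for CIRBP and DUSP4.

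Most tested splicing regulators other than RSRP1 and RBM5 had small differences. Of 111 tested members of a list of SR proteins and alternative splicing factors, 2 were called, 10 were higher at an unadjusted p under 0.05 (9.01%, against 3.3% of all names) and 3 were lower (2.70%, against 2.03%). The median log2 fold change of the list was 0.036, against -0.0082 over all names, and 62 of the 111 were positive, so most members were close to their control level. Without high dose replicate 1 the number higher was 19, and without control replicate 1 the number lower was 6. The list was drawn up with RSRP1 and RBM5 already known to be called, so its count is no independent evidence.

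Within that list CLK4 and CLK1 were on the higher side and SRSF5 and SRSF6 on the lower side. CLK4, a kinase that phosphorylates SR proteins, stood at 31.0, 25.0, 24.5 and 27.7 CPM in controls and at 45.3, 42.2, 43.1, 41.7 and 42.9 CPM at the high dose. Its exposed livers were close to one another and all above the controls (log2 0.67, adjusted p 0.0744). The related kinase CLK1 had a log2 fold change of 0.43 (adjusted p 0.326).

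SRSF5 and SRSF6, SR proteins that bind exonic enhancers, were lower in every exposed liver than in any control. SRSF5 had 157, 100, 138 and 127 CPM in controls and 90.4, 76.5, 85.5, 84.7 and 94.8 CPM at the high dose, a log2 difference of -0.60 (adjusted p 0.0866). SRSF6 had 115, 139, 146 and 143 CPM against 84.0, 100, 96.7, 98.2 and 106 CPM, a log2 difference of -0.48 (adjusted p 0.0925). RBM6, the neighbour of RBM5 in name and domain structure, had 0.38 (adjusted p 0.304), and LUC7L3, a U1-associated protein, had 0.46 (adjusted p 0.315). CLK1, RBM6 and LUC7L3 were picked for mention after their values were seen.

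Other messages of nuclear RNA handling and chromatin stood among the smallest p values without being called. INTS6, a subunit of the Integrator complex that processes small nuclear RNAs, had 47.3 to 58.0 CPM in controls and 64.9 to 80.7 CPM at the high dose (log2 0.53, adjusted p 0.0861). ZFC3H1, which in mammals links polyadenylated nuclear RNA to the exosome, had 29.7 to 37.7 CPM in controls and 35.4 CPM in high dose replicate 1, against 60.0 to 64.2 CPM in the other 4 exposed livers (log2 0.74, adjusted p 0.145). The exposed liver within the control range was the one that also stood apart on the leading component, and without it ZFC3H1 was called (log2 0.88, adjusted p 0.00181).

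ING1, a reader of methylated histone H3, had 6.10 to 9.45 CPM in controls and 11.9 to 15.3 CPM at the high dose (log2 0.75, adjusted p 0.0925). TTC14, a protein with tetratricopeptide repeats, had 4.38 to 6.04 against 7.50 to 10.2 CPM (log2 0.77, adjusted p 0.0925). The chromatin remodeller CHD1, which is also on the list of Z-linked genes described below, had a log2 fold change of 0.59 (adjusted p 0.187).

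Linker histones bind DNA between nucleosomes, and none was called. H1.01 stood at 30.6, 26.6, 23.8 and 22.5 CPM in controls and at 13, 13.4, 14.4, 10.4 and 18.4 CPM at the high dose (log2 -0.90, adjusted p 0.0744). H1.10 stood at 11.7, 7.92, 7.62 and 6.56 CPM against 4.43, 3.92, 3.28, 3.01 and 5.08 CPM (log2 -1.11, adjusted p 0.0744). Neither of these 2 histones overlapped between the groups.

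The more abundant linker histone H1-10 had a log2 fold change of -0.23 (adjusted p 0.911). Of 23 tested histone names none was higher and 3 were lower at an unadjusted p under 0.05 (13.04%, against 2.03% of all names). The list median of the log2 fold change was -0.0092. Leaving out 1 library moved the number lower to between 2 and 4. Histone names are near-identical in sequence, so reads may be shared out among them.

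Of 83 tested heat shock proteins and co-chaperones, none was called (the DNAJA1-like name is not among them), 5 were higher at an unadjusted p under 0.05 (6.02%, against 3.3%) and 2 were lower (2.41%, against 2.03%). The median log2 fold change was -0.027. BAG3, which couples heat shock protein 70 to autophagy, had 6.41, 7.43, 6.23 and 4.90 CPM in controls and 11, 11.2, 12.1, 10.3 and 8.47 CPM at the high dose. All exposed livers were above all controls (log2 0.77, adjusted p 0.0864). Without control replicate 2 the number higher was 9, and without control replicate 1 the number lower was 4.

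AHSA2, a relative of the activator of the heat shock protein 90 ATPase, had 4.11 to 5.82 CPM in controls and 7.53 to 9.21 CPM at the high dose (log2 0.75, adjusted p 0.0925). DNAJA4, a further co-chaperone of the DNAJA family, had 13.9 to 21.1 against 21.5 to 28.1 CPM (log2 0.60, adjusted p 0.166). The constitutive chaperone HSPA8 had a control mean of 702 CPM and a high dose mean of 1010 CPM (log2 0.52, adjusted p 0.582), with overlapping groups. A second name annotated as DNAJA1 had a log2 fold change of 1.17 (adjusted p 0.502), and reads of the DNAJA1 names may be shared out among them.

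CIRBP was the one member of its list with a small p. Of 29 tested cold-inducible and stress RNA-binding proteins none was higher at an unadjusted p under 0.05. Lower was 1, CIRBP itself (3.45%, against 2.03% of all names), with a list median of -0.028. RBM3, the cold-inducible protein most similar to CIRBP, had a log2 fold change of 0.05 [-0.57, 0.67], and whether RBM3 and CIRBP differed in their change was not tested.

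Of 57 tested MAP kinase feedback and immediate early genes, 5 were lower at an unadjusted p under 0.05 (8.77%, against 2.03%), DUSP4 among them. None was higher, and the median was -0.080. Leaving out 1 library moved the number lower to between 3 and 8. EREG, a ligand of the epidermal growth factor receptor, had 5.60 to 7.69 CPM in controls and 3.44 to 4.69 CPM at the high dose (log2 -0.71, adjusted p 0.315). The immediate early genes FOS and NR4A1 had log2 fold changes of -1.08 (adjusted p 0.864) and -0.74 (adjusted p 0.856), at control means of 0.848 and 2.44 CPM.

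**Figure D2:**
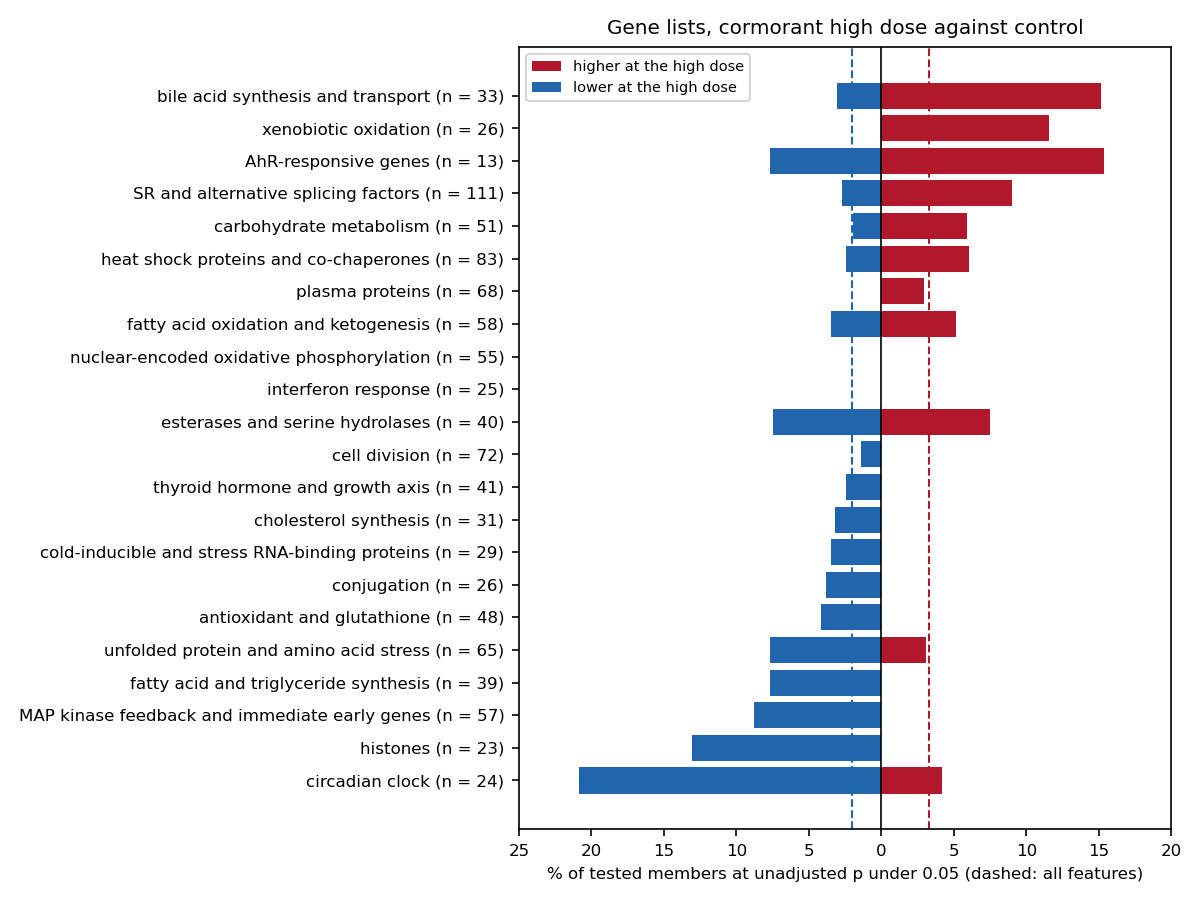
Share of tested members (%) of 22 gene lists at an unadjusted p under 0.05, higher to the right and lower to the left, with dashed lines at the shares over all 14579 names (3.3% and 2.03%). The splicing list reaches 9.01% higher and 2.70% lower, and the circadian clock list 4.17% higher and 20.8% lower.

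The CYP1A messages, the classical targets of the aryl hydrocarbon receptor, had the largest log2 fold changes of the names given here together with RSRP1, with a wide spread among controls, and none of the 4 names was called. CYP1A4-like stood at 250, 28.2, 144 and 95.1 CPM in controls and at 630, 515, 443, 610 and 750 CPM at the high dose (log2 2.19, adjusted p 0.122). CYP1A5-like stood at 375, 46.0, 183 and 108 CPM against 926, 633, 636, 737 and 824 CPM (log2 2.08, adjusted p 0.187). All exposed livers were above all controls, while control 1 was many times control 2.

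CYP1A4 and CYP1A5 had log2 fold changes of 2.28 (adjusted p 0.187) and 1.95 (adjusted p 0.315). Reads may be shared out among these related names, which was not tested, so their sum is given as well. It was 391 ± 310 CPM in controls (SD, n = 4) and 1711 ± 294 CPM at the high dose (SD, n = 5), a ratio of means of 4.37. Without control 1, the highest control, all 4 names were called, with log2 fold changes of 2.73 for CYP1A4-like, 2.75 for CYP1A5-like, 2.97 for CYP1A4 and 2.83 for CYP1A5 and adjusted p from 0.0399 to 0.0462. DESeq2 called all 4 with all libraries in, among 60 names that it called. Each of the 4 was called under only these 2 of 18 other settings. With a single other library left out, the lowest log2 fold changes were 1.85, 1.75, 1.92 and 1.61, in the order above. The highest adjusted p of these edgeR fits was 0.501 for CYP1A4-like, 0.589 for CYP1A5-like and CYP1A4, and 0.682 for CYP1A5. With neither control 1 nor high dose 1 none was called in edgeR (adjusted p 0.0675 to 0.0907). None was called by limma voom (adjusted p 0.0657 to 0.0767) or in the edgeR fit of the 9 libraries alone (adjusted p 0.566 to 0.834).

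**Figure D3:**
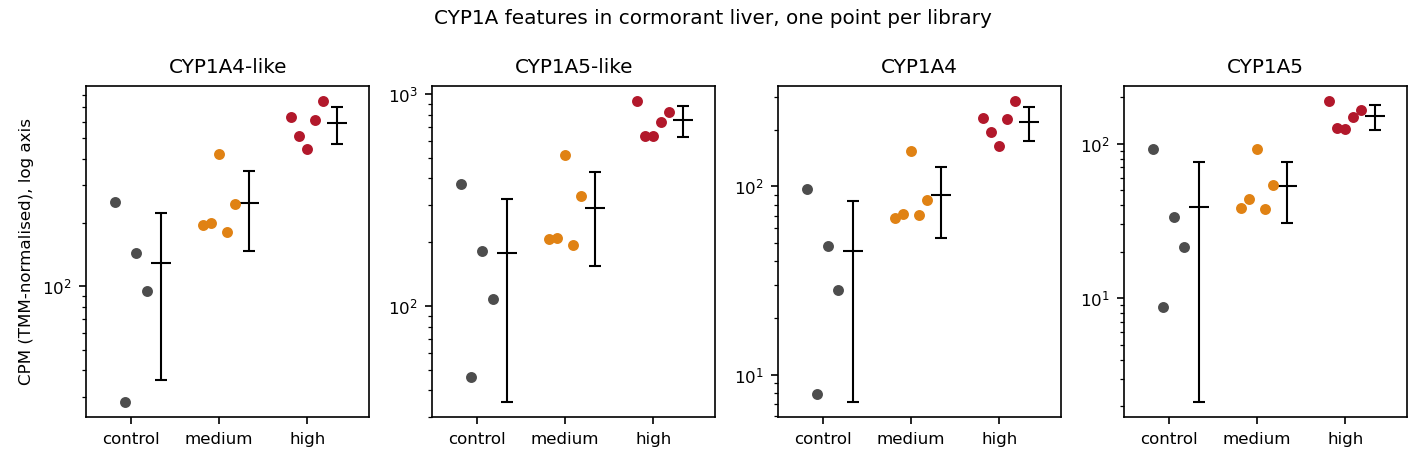
Level (CPM, log axis) of 4 CYP1A names in each cormorant liver at control, medium and high dose, 1 point per library, with bars for the mean and SD. The controls span a wide range, from 28.2 to 250 CPM for CYP1A4-like, and all high dose livers lie above them, at 443 CPM or more for that name.

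No member of the receptor's list was called. Of 13 tested AhR-responsive genes, CYP1A4 and CYP1A5 were higher at an unadjusted p under 0.05 (15.4%, against 3.3% of all names). The 1 lower member (7.69%, against 2.03%) was TIPARP, a polymerase that dampens the receptor, with a log2 fold change of -0.34 (adjusted p 0.889). The list median was -0.0056. Without high dose replicate 1 the number higher was 3.

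Of the 31 tested CYP2 and CYP3A names, the families that oxidise many drugs and pesticides, none was called, 4 were higher at an unadjusted p under 0.05 and none was lower, where 3.3% of all names were higher and 2.03% lower. Their log2 fold changes ran from -0.89 to 1.05 with a median of 0.30. CYP2AC1 had the largest, with 1.64, 1.33, 1.27 and 1.49 CPM in controls and 1.83, 2.96, 2.97, 3.06 and 4.09 CPM at the high dose (adjusted p 0.326). CYP2W1 had 0.53 (adjusted p 0.837), CYP2H1 -0.22, CYP2C19 -0.25 and CYP3A37 0.26.

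Of 26 tested members of the list of xenobiotic oxidation, 3 were higher (11.5%, against 3.3% of all names) and none was lower, with a median of 0.015. Beside CYP2AC1 and CYP2W1 these included AOX1, an aldehyde oxidase, with a log2 fold change of 1.01 (adjusted p 0.735). Without high dose replicate 1 the number higher was 5. The conjugation list, with transferases that attach glucuronide, sulfate or glutathione, had none of 26 higher and 1 lower (3.85%, against 2.03%).

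Of the enzymes that chlorpyrifos inhibits or that hydrolyse its oxon, ACHE, the target enzyme, stood at 13.6, 9.46, 8.83 and 12.7 CPM in controls and at 7.02, 6.39, 6.87, 4.73 and 4.69 CPM at the high dose. Every exposed liver was below every control (log2 -0.90, adjusted p 0.404). A cholinesterase-like name stood at 3.29, 3.85, 2.86 and 4.29 CPM against 1.42, 1.51, 1.48, 1.45 and 2.39 CPM, also without overlap (log2 -1.13, adjusted p 0.304). Neither was called, and a further acetylcholinesterase-like name had -0.74 (adjusted p 0.834).

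The butyrylcholinesterase BCHE had a log2 fold change of -0.05 [-0.53, 0.44], and the paraoxonases PON1 and PON2, which hydrolyse organophosphate oxons, had -0.04 [-0.41, 0.32] and -0.07 [-0.42, 0.28]. The whole list of 40 tested esterases and serine hydrolases had 3 members higher and 3 lower at an unadjusted p under 0.05 (7.5% in each direction, against 3.3% and 2.03% of all names), with a median of -0.025. These are messages, and enzyme activity was not measured here.

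In bile acid metabolism, NR1H4, the farnesoid X receptor that senses bile acids, had 36.5, 32.6, 44.6 and 44.4 CPM in controls and 60.7, 57.7, 62.3, 62.4 and 52.4 CPM at the high dose. Again no exposed liver reached down to the controls (log2 0.58, adjusted p 0.0744). Of 33 tested members of the list, 5 were higher (15.2%, against 3.3% of all names) and 1 was lower (3.03%, against 2.03%) at an unadjusted p under 0.05, with a median of 0.049.

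Among those, ABCC3, an exporter of bile acid conjugates, had a log2 fold change of 0.53 (adjusted p 0.788) and SLC10A4, of the bile acid transporter family, had 1.11 (adjusted p 0.743). Without 1 library the number higher ran from 3 to 6.

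In lipid storage, G0S2, an inhibitor of the lipase ATGL, stood at 156, 128, 84.7 and 99.2 CPM in controls and at 90.0, 74.7, 65.9, 59.0 and 45.7 CPM at the high dose (log2 -0.80, adjusted p 0.315). Only high dose replicate 1 overlapped with the controls. CIDEC, a lipid droplet protein, had -0.58 (adjusted p 0.840), and INSIG1, which retains the sterol sensor in the endoplasmic reticulum, had -0.47 (adjusted p 0.652).

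These 3 were the members of the list of fatty acid and triglyceride synthesis that were lower at an unadjusted p under 0.05, of 39 tested. They made 7.69% of the list, against 2.03% of all names, with none higher and a list median of -0.12. Without control replicate 1 the number lower was 7, and without high dose replicate 1 there were 2 higher. The list of fatty acid oxidation had 3 of 58 higher (5.17%, against 3.3% of all names) and 2 lower (3.45%), with a median of -0.013. That of cholesterol synthesis had none of 31 higher and 1 lower (3.23%), with a median of 0.014.

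In carbohydrate metabolism, PPP1R3B, a subunit that directs protein phosphatase 1 to glycogen, stood at 5.91, 5.19, 4.89 and 5.08 CPM against 7.38, 11.8, 23.2, 8.76 and 12.9 CPM (log2 1.27, adjusted p 0.404).

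The exposed livers varied several fold in PPP1R3B while the controls did not, and all of them were above the controls. Its relative PPP1R3C had 1.19 (adjusted p 0.889). Of 51 tested members of the list, 3 were higher (5.88%, against 3.3% of all names) and 1 was lower (1.96%, against 2.03%) at an unadjusted p under 0.05. The list median was -0.048, and without high dose replicate 1 the number lower was 4.

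None of the clock genes was called. NR1D2 and NR1D1, the REV-ERB receptors that repress the positive arm of the circadian oscillator, had log2 fold changes of -0.51 (adjusted p 0.187) and -1.24 (adjusted p 0.315). NR1D2 had 18.5 to 23.7 CPM in controls and 12.5 to 16.7 CPM at the high dose without overlap. NR1D1 had 3.71 to 10.4 CPM against 1.63 to 4.59 CPM, where high dose replicate 5 overlapped with control 2.

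BHLHE40, a further repressor, had -0.77 (adjusted p 0.352), and CIART had -0.55 (adjusted p 0.617). Of 24 tested clock genes 5 were lower at an unadjusted p under 0.05 (20.8%, against 2.03%) and 1 was higher (4.17%), and the list median was 0.000328, or -0.00713 with upper quartile factors. Without high dose replicate 1 the number higher was 4. The labels used here give no hour at which livers were taken, so hour and dose could not be separated.

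Among genes of amino acid stress, CHAC1, a glutathione-degrading enzyme induced through ATF4, stood at 8.71, 5.33, 9.40 and 2.10 CPM in controls and at 4.37, 2.84, 2.58, 1.40 and 1.2 CPM at the high dose (log2 -1.35, adjusted p 0.515). The groups overlapped through the unnumbered control. STC2, a secreted glycoprotein, had -0.68 (adjusted p 0.548) and MTHFD2, a mitochondrial folate enzyme, had -0.61 (adjusted p 0.639).

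Of 65 tested members of the list of unfolded protein and amino acid stress, 5 were lower (7.69%, against 2.03% of all names) and 2 were higher (3.08%, against 3.3%) at an unadjusted p under 0.05, with a median of -0.053. The number lower ran from 3 to 11 when 1 library was left out and was highest without high dose replicate 1. The antioxidant and glutathione list had none of 48 higher and 2 lower (4.17%, against 2.03%).

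The remaining function lists were near or below the shares over all names. Of 68 plasma protein genes 2 were higher and none was lower, of 72 cell division genes none was higher and 1 was lower, and of 41 genes of the thyroid hormone and growth axis none was higher and 1 was lower. None of 25 interferon-response genes and none of 55 nuclear-encoded genes of oxidative phosphorylation reached an unadjusted p under 0.05.

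Among names with no overlap between groups, an unadjusted p under 0.05 and a mean log2 CPM not below 0, several of the largest log2 fold changes belonged to other functions. FXYD6, a regulator of the sodium pump, had a log2 fold change of 1.24 (adjusted p 0.473). GDF6, a bone morphogenetic protein, had 1.19 (adjusted p 0.535) and FBXL22, an F-box protein, had 1.19 (adjusted p 0.539). All of them were scarce, at no more than 3.55 CPM in any of the 9 livers. On the lower side, C1orf216 had -0.80 (adjusted p 0.603), SLC25A25, a mitochondrial carrier of ATP-Mg, had -0.71 (adjusted p 0.602) and TRIM35, a ubiquitin ligase, had -0.68 (adjusted p 0.264).

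TRIM35 was lower in all exposed livers, at 16.7 to 23.6 CPM, than in any control, at 24.2 to 40.0 CPM. RHOU, a small GTPase, had 30.5 to 48.9 CPM in controls and 23.2 to 31.1 CPM at the high dose, a log2 difference of -0.62 (adjusted p 0.299), where control 1 fell within the exposed range. ASB3, a SOCS box protein of ubiquitin ligases, was on the other side, with 9.72 to 15.4 CPM in controls and 19.9 to 26.1 CPM at the high dose (log2 0.81, adjusted p 0.0744). DLG3, a membrane scaffold protein, had -0.49 (adjusted p 0.315).

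No red cell marker was called. Of 19 tested erythroid markers, 17 had a positive log2 fold change, 6 were higher at an unadjusted p under 0.05 (31.6%, against 3.3%), none was lower, and the median was 0.80. Their mean log2 CPM was 5.06, 3.94, 4.59 and 5.00 in the controls and 5.51, 5.44, 5.02, 5.75 and 4.67 at the high dose, so the groups overlapped. The carbonic anhydrase CA2 had 0.81 (adjusted p 0.404), the membrane proteins EPB42 and SLC4A1 had 0.98 (adjusted p 0.473) and 0.91 (adjusted p 0.615), and the transcription factor GATA1 had 0.93 (adjusted p 0.837).

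The sum of 12 globin names was 5694 ± 2731 CPM in controls (SD, n = 4) and 10020 ± 3880 CPM at the high dose (SD, n = 5). Without 1 library the number of erythroid markers higher ran from 3 to 11, highest without control replicate 1. Whether red cell content bears on any other result above was not tested.

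Of 19 endothelial markers 3 were lower at an unadjusted p under 0.05 (15.8%, against 2.03% of all names) and none was higher, with a median of -0.11. LYVE1, a marker of sinusoidal lining cells, had -0.40 (adjusted p 0.889). Without 1 library the number of endothelial markers lower ran from 0 to 3. Of 12 macrophage markers none passed that p in either direction. Of 10 granulocyte and thrombocyte markers 2 were higher (20%, against 3.3% of all names). Stellate and fibroblast markers had 1 of 18 higher (5.56%) and 1 lower (5.56%). Of 11 bile duct markers none was higher and 1 was lower (9.09%).

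Of the few tested markers of lymphocytes (7), muscle (8), gut (5), kidney (4) and pancreas (1) none passed. Z-linked genes, whose dose differs between male and female birds, had 3 of 38 higher (7.9%, against 3.3% of all names), CHD1 among them, and none lower. Their mean log2 CPM was 5.19, 4.91, 4.80 and 4.86 in the controls and 4.68, 4.94, 5.43, 4.94 and 5.40 at the high dose. With that level as a covariate 5 names were called, and DUSP4 was not among them while H1.01 was. None of 64 ribosomal protein genes passed.

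**Figure D4:**
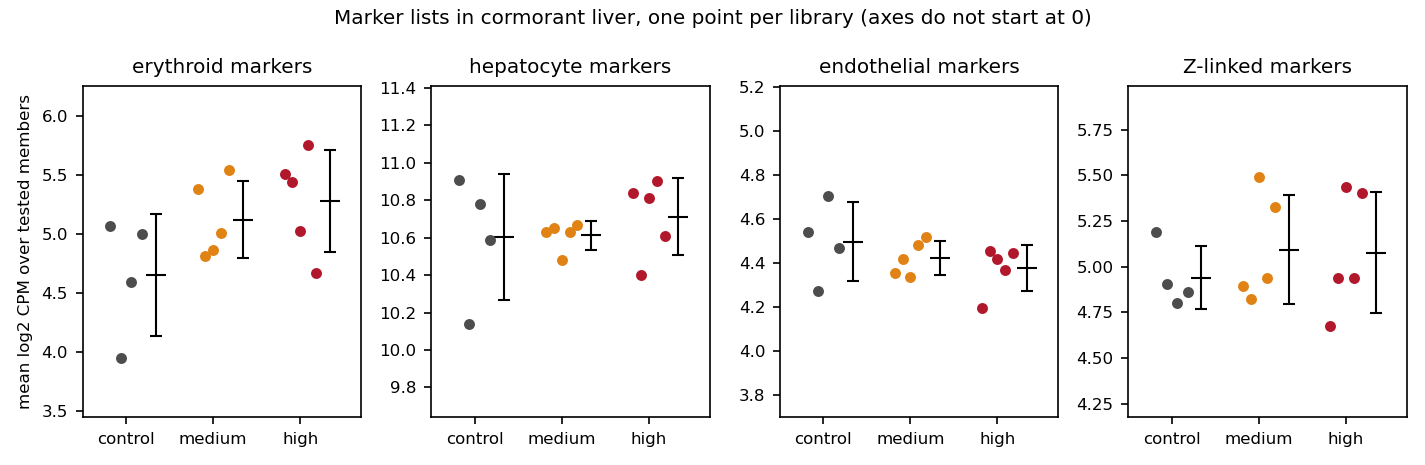
Mean log2 CPM of the erythroid, hepatocyte, endothelial and Z-linked lists in each cormorant liver at control, medium and high dose, 1 point per library, with bars for the mean and SD (axes do not start at 0). Hepatocyte levels overlap at 10.1 to 10.9, and erythroid levels run from 3.94 to 5.06 in controls and from 4.67 to 5.75 at the high dose.

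The medium dose group was set beside the high dose group, with which it shares the control libraries. Against control 7 of 14579 names were called (0.048%), among them RSRP1, RBM5, G0S2, DUSP4, SRSF5 and a CIDE-3-like name. Medium dose livers had 13.3 to 16.9 CPM of RSRP1 (log2 1.37, adjusted p 0.00285) and 118 ± 6.66 CPM of RBM5 (SD, n = 5; log2 0.82, adjusted p 0.00285), between the control and the high dose livers in both cases. DUSP4 was at -0.76 (adjusted p 0.0041) at the medium and -0.62 at the high dose, and CIRBP was at -0.51 (adjusted p 0.131) and -0.63.

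G0S2 had -1.61 (adjusted p 0.00338) at the medium and -0.80 at the high dose, and SRSF5 had -0.81 (adjusted p 0.00648) and -0.60. Both were thus further from control at the medium dose by its point estimate. The DNAJA1-like name had 0.54 (adjusted p 0.541) at the medium and 1.01 at the high dose, and NR1H4 had 0.55 and 0.58.

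The direct comparison of high with medium dose livers called none of the 14579 names (0%), with a smallest adjusted p of 0.796 in edgeR, 475 names at an unadjusted p under 0.05, none by limma voom and 4 by DESeq2. RSRP1 differed by 0.63 [0.32, 0.94], RBM5 by 0.33 [0.14, 0.52], the DNAJA1-like name by 0.47 [0.16, 0.78] and G0S2 by 0.81 [0.40, 1.22], high minus medium on the log2 scale. The intervals for CIRBP [-0.32, 0.08] and DUSP4 [-0.06, 0.35] included 0. None of these intervals is corrected for the number of names tested.

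The sum of the 4 CYP1A names was 506, 522, 1185, 482 and 716 CPM in medium dose livers, all below the lowest high dose liver at 1366 CPM. The medium dose range overlapped that of the controls. The 4 names differed between high and medium dose by 1.25 (CYP1A4-like), 1.37 (CYP1A5-like), 1.28 (CYP1A4) and 1.49 (CYP1A5) on the log2 scale, with unadjusted p from 0.0037 to 0.0097 and no call.

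The species difference was tested as the high dose effect in JQ minus that in DCCO, over 15596 names found in both tables, of which 188 were called (1.21%). The species differed in age at sampling, and the labels do not show that their high doses were equal, so species, age and dose cannot be told apart. Among 25 cormorant names, the 5 called and those with the smallest p in each direction whose protein name gives a symbol and does not end in "like" (which leaves out CYP1A4-like), the difference was called for 15, for 9 of 13 that were higher and 6 of 12 that were lower in DCCO. The members were chosen from the DCCO side of this contrast, so that count is given as a description.

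RSRP1 had -0.76 in JQ against 2.0 in DCCO, a difference of -2.76 [-3.81, -1.72] with an adjusted p of 0.0036. RBM5 had -0.16 against 1.15, a difference of -1.31 (adjusted p 0.00049). CIRBP had 0.01 and DUSP4 0.25 in JQ, with differences of 0.63 and 0.87 (adjusted p 0.021 for both), while the difference for the DNAJA1-like name, -0.98, was not called (adjusted p 0.072).

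CLK4 (-1.0, adjusted p 0.0022) and NR1H4 (-1.12, adjusted p 0.0023) also differed between the species, as did H1.10, SRSF6, ASB3, INTS6, TTC14, ING1, ZFC3H1 and RHOU. PPP1R3B differed by -3.74, since it was lower in exposed JQ and higher in exposed DCCO livers. In quail the 13 names of that set with positive sign in DCCO had log2 fold changes of -0.76 to 0.05 and the 12 with negative sign -0.59 to 0.68.

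The CYP1A names had JQ log2 fold changes of 2.16 to 2.62, with species differences of -0.02 to 0.67 that were not called. For the CYP2 and CYP3A names the difference was called in 9 of 31. The largest of those named here were CYP2H1 (11.2), CYP3A37 (5.86) and CYP2C19 (5.25). A CYP2H1 level of about 1 to 2 CPM in the exposed cormorant livers rests on few reads.

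**Figure D5:**
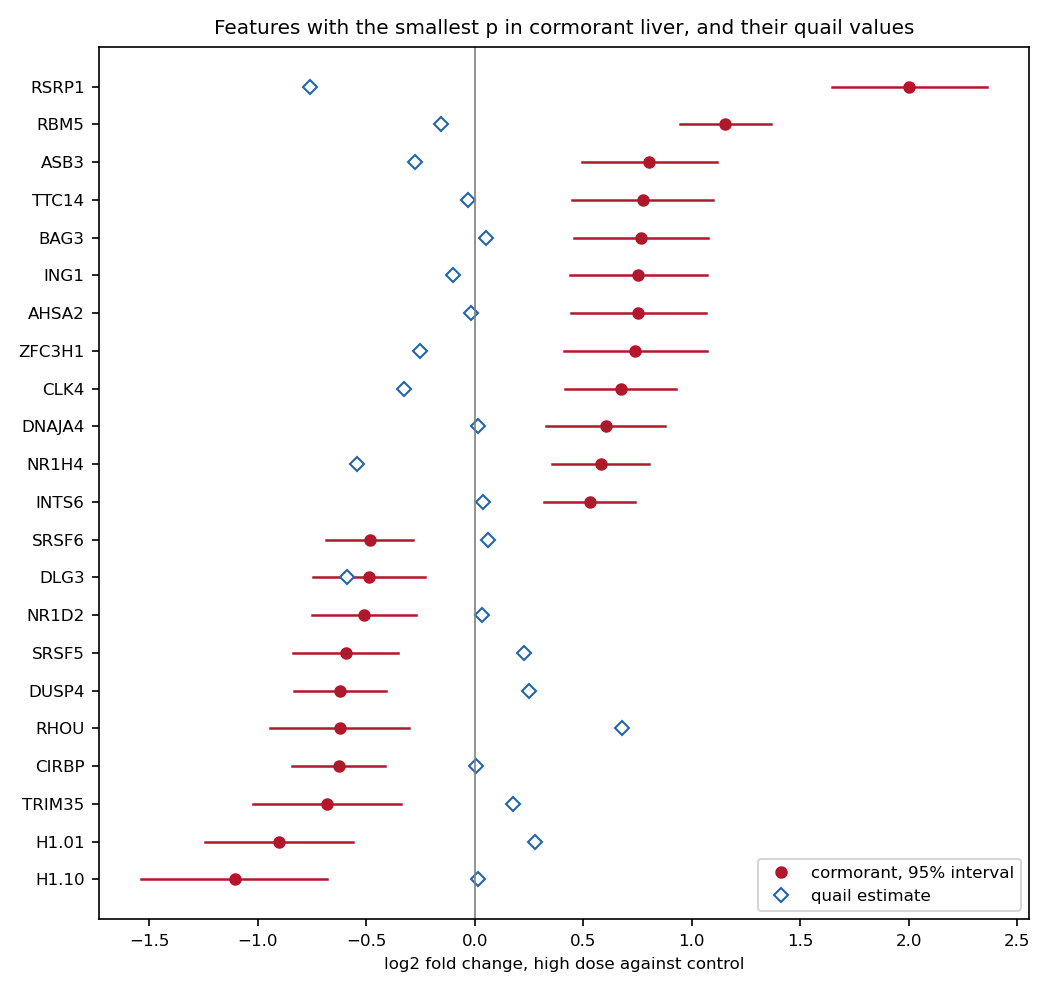
Log2 fold change, high dose minus control, of 22 cormorant names with a gene symbol and among the smallest p, 12 higher and 10 lower, as points with 95% intervals, and the quail value of the same name as a diamond. The quail diamonds of RSRP1 (-0.76) and RBM5 (-0.16) lie on the other side of 0 from the cormorant points (2.0 and 1.15).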

How the data were processed

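Livers of DCCO embryos (4 control, 5 medium, 5 high dose) and, for the species contrast, JQ embryos (5 control, 5 medium, 5 high dose) were analysed from the deposited tables of raw read counts per protein name. The authors made these counts with Seq2Fun and a bird database, as the deposited tables are named, and the submitters' processing notes list edgeR with no version. Alignment settings and any filter were not given in the sources used here. Values are per protein name, without coordinates. The table held 21547 names, and the 9 libraries had the totals given above. Reads of near-identical proteins may be shared out among names. PCR reads are not independent molecules, so depth limits scarce names most.

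The counts were fitted with edgeR 4.0.16 in R 4.3.3 (TMM scaling, filterByExpr with a count of 10 and a total of 15, robust quasi-likelihood test), with all 14 DCCO libraries in 1 fit and Benjamini-Hochberg adjustment over 14579 names. Standard errors are |log2 fold change| over the root of F. List levels are mean log2 CPM with a prior count of 2. The species contrast fitted all 29 libraries on 15596 of 18869 shared names. The labels present replicates as separate livers, so p-values reflect only the spread among these livers.

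Lists held 1506 symbols (22 function and 14 marker lists), of which 1322 matched a name and 1205 were tested. The members, lists and tests were chosen with earlier results of these data known. The text names every called feature, the 12 smallest p values in each direction, the 8 largest rises and falls among names with a symbol and no overlap between groups, up to 4 members per list by p, and the esterase, paraoxonase and CYP families. The groups are those of the labels. Alternatives were other size factors, no filter, DESeq2 1.42.0, limma 3.58.1 voom, a replicate block, a Z-linked covariate, fits of 9 libraries, and leaving out each library. Some features that the naming rule covers are not reported here.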

Additional observations from a re-analysis of the deposited data

Results flagged for a closer look

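Among the names in the text, 148 groups of 4 or 5 cormorant livers were searched for a library far from the rest of its group, and 9 were found, where chance gives about 1 in 20. In the high dose group, ZFC3H1 was at 35.4 CPM in replicate 1 (60.0 to 64.2 in the others), CIDEC at 30.1 CPM in replicate 1 (10.6 to 15.9), CYP2H1 at 2.11 CPM in replicate 3 (0.997 to 1.24), BCHE at 15.4 CPM in replicate 4 (7.30 to 8.35) and the cholinesterase-like name at 2.39 CPM in replicate 5 (1.42 to 1.51). In the control group, SLC10A4 was at 2.30 CPM in replicate 1 (0.631 to 0.875), SLC25A25 at 106 CPM in replicate 2 (51.5 to 56.2), FOS at 1.19 CPM in replicate 2 (0.700 to 0.762) and TXNIP at 120 CPM in replicate 3 (76.2 to 80.0). TXNIP, an inhibitor of thioredoxin, had a log2 fold change of -0.55.

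The effect of the high dose differed between the species for 19 of the 71 named features, by an interaction test in edgeR with an adjusted p under 0.05. Over all names tested, 188 of 15596 were called (1.21%). Many of the 19 were named for their small p on the DCCO side of this same contrast, so the count is given as a description. The differences below are JQ minus DCCO on the log2 scale. Names with a negative difference were RSRP1 (-2.76), RBM5 (-1.31), CLK4 (-0.999), NR1H4 (-1.12), ASB3 (-1.08), INTS6 (-0.493), TTC14 (-0.808), ING1 (-0.855), ZFC3H1 (-0.994) and PPP1R3B (-3.74). Names with a positive difference were CIRBP (0.632), DUSP4 (0.871), H1.10 (1.13), SRSF6 (0.546), RHOU (1.30), NR1D1 (1.72), CYP2H1 (11.2), CYP2C19 (5.25) and CYP3A37 (5.86). Species, age at sampling and dose cannot be told apart.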

How the results depend on the processing

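The number of names called at the high dose was 5 with relative log expression factors, upper quartile factors or the Z-linked covariate and 6 with limma voom. It was 3 with no filter, 60 with DESeq2, 2 in a fit of the 9 libraries alone, 16 with neither control 1 nor high dose 1 and 18 at an adjusted p under 0.1. Leaving out 1 library gave 2 to 14. With the replicate number as a block, and thus without the unnumbered control, 2 names were called. The labels give no pairing by number, and the data do not settle whether the numbers pair the samples. Deviations of same-numbered control and high dose livers correlated at 0.385, 0.277 and 0.00976. Controls 1 and 2 correlated best with the high dose liver of their own number, and control 3 with high dose 4. Control 1 and high dose 1 also share the number 6 in their column names and stood apart on the leading component. Controls 1 to 3 correlated with the medium dose livers of their number at -0.119, 0.0865 and -0.108, none of them the best match. Medium dose livers 1, 3 and 5 correlated best with the high dose liver of their number, and 2 and 4 did not.

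DESeq2 called 52 names for medium dose against control and 4 for high against medium dose. Over 71 named features and 1269 alternative values, 1180 kept direction and side of the threshold, 47 became called, 29 lost a call and 13 reversed. The cause was not tested. CYP2H1, at -0.22 in the main fit, reversed to 0.12 with voom and 0.12 with the block, and ran from -0.57 to 0.43 with 1 library left out. CYP3A37 reversed to -0.19 with the block. BCHE reversed to 0.010 without control 1 and high dose 1, and ran from -0.30 to 0.041 with 1 left out. With 1 left out PON1 ran from -0.13 to 0.027 and PON2 from -0.19 to 0.022. Depth limits names near 1 CPM most, such as CYP2H1 and FOS.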
